A study of Mus musculus with 10 samples.

Results

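Collagen transcripts were examined in sequencing libraries of regulatory T (Treg) cells sorted from tumours and lymph nodes of mice. The members were all genes whose symbol has the form of a collagen chain (Col, a type number, the letter a and a chain number), which gave 44 of the 55291 genes in the deposited count table. Hepa1-6 libraries (n = 4) came from Treg cells of subcutaneous tumours of a mouse hepatoma line, taken on day 23 after injection. E.G7 libraries (n = 2) came from subcutaneous tumours of a mouse T lymphoma line derived from EL4, taken on day 21. LN libraries (n = 4) came from lymph nodes of mice without a tumour. All mice in the 3 groups were Foxp3YFP-cre, a line in which the Foxp3 locus drives a yellow fluorescent protein and Cre recombinase. Treg cells of the tumours were taken by flow cytometry out of CD4+ T cells isolated from the infiltrating lymphocytes. The labels give no age, no sorting gate and no statement that replicates were separate animals, and the p-values below therefore speak of library-to-library spread only. The sort was meant to hold Treg cells, and Foxp3, their lineage factor, stood at 82.0 ± 11 CPM in Hepa1-6, 50.2 ± 4.34 CPM in E.G7 and 109 ± 10.8 CPM in LN libraries (SD, n = 4, 2 and 4). CPM is the read count scaled to 1000000 reads after TMM normalisation of the libraries.

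Collagens are secreted or membrane proteins built from 3 chains wound into a triple helix, and each chain has its own gene. Fibrillar collagens form the rope-like fibrils of connective tissue and are made mainly by fibroblasts, smooth muscle and cartilage or bone cells. Type IV collagens form the sheet of basement membranes under epithelium and around vessels, and the remaining types decorate fibrils, build microfibrils and networks, or sit in cell membranes. T cells are not regarded as a main source of any of them, while tumours hold collagen from fibroblasts, vessels and, in some carcinomas, the tumour cells. The members were parted into 11 fibrillar, 6 basement membrane (type IV) and 27 other collagen genes.

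The start regions of 5 members are shown here, as they carry the contrasts described below. Col4a1 and Col4a2 lie head to head on chromosome 8, are transcribed away from each other and were high together in Hepa1-6 libraries. Col1a2 and Col3a1 are fibrillar genes that were high in both tumours, and Col11a2 is a fibrillar gene that was highest in LN. RefSeq windows (build GRCm38.p6) run from 250 bases before to 50 bases after each RefSeq start, 5′ to 3′ on the gene's strand. That start is not always the first base of the counted gene. The Col11a2 window ends before the counted gene begins (34039437), and the Col1a2 window lies inside the counted gene, which begins at 4504814. Capitals mark matches to CCAAT, to GGGCGG or to TATAAA, each searched on both strands, so that a match on the other strand shows its reverse complement. No match overlaps another motif's match in the 5 windows shown. The windows are chr8:11312777-11313076 (minus strand) for Col4a1, chr8:11312555-11312854 (plus strand) for Col4a2, chr6:4505368-4505667 (plus strand) for Col1a2, chr1:45311288-45311587 (plus strand) for Col3a1 and chr17:34038888-34039187 (plus strand) for Col11a2.
Col4a1: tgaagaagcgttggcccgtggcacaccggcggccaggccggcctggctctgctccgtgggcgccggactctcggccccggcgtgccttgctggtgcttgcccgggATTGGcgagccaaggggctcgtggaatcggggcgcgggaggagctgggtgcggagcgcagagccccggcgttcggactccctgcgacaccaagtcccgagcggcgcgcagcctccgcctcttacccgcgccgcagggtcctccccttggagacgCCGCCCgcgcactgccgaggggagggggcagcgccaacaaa
Col4a2: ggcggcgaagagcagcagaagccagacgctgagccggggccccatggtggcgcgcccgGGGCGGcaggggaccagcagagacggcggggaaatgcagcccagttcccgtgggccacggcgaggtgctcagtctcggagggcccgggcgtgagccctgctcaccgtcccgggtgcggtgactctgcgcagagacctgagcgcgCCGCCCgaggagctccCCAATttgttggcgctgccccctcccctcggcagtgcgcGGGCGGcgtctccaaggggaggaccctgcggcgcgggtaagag
Col1a2: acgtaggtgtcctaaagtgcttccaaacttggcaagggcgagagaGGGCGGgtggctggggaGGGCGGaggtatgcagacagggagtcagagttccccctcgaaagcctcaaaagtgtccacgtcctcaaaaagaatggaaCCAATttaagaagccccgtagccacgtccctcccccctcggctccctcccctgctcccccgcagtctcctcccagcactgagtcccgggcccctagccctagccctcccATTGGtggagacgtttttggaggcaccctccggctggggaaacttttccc
Col3a1: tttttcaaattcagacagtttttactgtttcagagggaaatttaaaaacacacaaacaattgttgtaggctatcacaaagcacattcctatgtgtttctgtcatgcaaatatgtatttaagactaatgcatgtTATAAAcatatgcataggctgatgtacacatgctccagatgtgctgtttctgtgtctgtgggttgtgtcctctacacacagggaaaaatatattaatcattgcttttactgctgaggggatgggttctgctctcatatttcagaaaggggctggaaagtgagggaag
Col11a2: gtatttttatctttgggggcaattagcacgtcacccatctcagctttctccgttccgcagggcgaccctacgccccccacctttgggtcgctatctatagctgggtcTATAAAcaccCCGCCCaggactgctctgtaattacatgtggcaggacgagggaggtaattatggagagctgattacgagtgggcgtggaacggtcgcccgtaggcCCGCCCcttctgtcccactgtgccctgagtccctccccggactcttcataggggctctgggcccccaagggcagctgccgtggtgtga
The Col4a1 and Col4a2 windows overlap by 78 bases, chr8:11312777-11312854, where they hold the same bases read on opposite strands. They were rich in G and C, at 74.0% for Col4a1 and 73.7% for Col4a2, with 37 and 33 CG pairs. The Col3a1 window was poor in G and C (37.7%), held no CG pair and had 1 TATAAA match. The Col1a2 window (61.0% G and C) held 2 CCAAT and 2 GGGCGG matches, and the Col11a2 window (59.0%) held 2 GGGCGG and 1 TATAAA match. A window was found for 35 of the 44 members (38 windows, since some have several). GGGCGG was in 23 of these 38 windows and in 35.7% of all 32851 windows of this length, CCAAT in 13 of 38 and in 37.4%, and TATAAA in 5 of 38 and in 13.6%. These matches describe letters only.

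Total counts ran from 26224286 to 26665325 in Hepa1-6, from 26585350 to 26663336 in E.G7 and from 22665563 to 24472849 in LN libraries. Of the 44 members, 39 had at least 1 count in Hepa1-6, 37 in E.G7 and 32 in LN. A mean of at least 1 CPM was reached by 20 members in Hepa1-6, 12 in E.G7 and 8 in LN. The filter on low counts left 29 members among 20068 genes tested, and 15 members were not tested. Of the 29, 7 had no count in any LN library. Run on the LN libraries alone, the same filter passed 12 of the 29, and on the E.G7 and LN libraries together 15, so the others passed only with the remaining libraries included. Transcripts of other cells were present in the tumour libraries. The 8 macrophage markers summed to 3443 to 3700 CPM in Hepa1-6, 691 to 730.2 CPM in E.G7 and 25 to 36.3 CPM in LN. The 12 hepatoma markers summed to 2778 to 2819 CPM in Hepa1-6, 119 to 124 CPM in E.G7 and 8.64 to 10.5 CPM in LN. Nearly all of the E.G7 sum was Trf, the transferrin gene, at 1251 ± 53.4 CPM in Hepa1-6, 115 ± 3.63 CPM in E.G7 and 1.82 ± 0.659 CPM in LN.

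Collagen transcripts were most abundant in the Hepa1-6 libraries. Summed over the 44 genes they reached 236, 237, 220.1 and 214 CPM in Hepa1-6 libraries, 53.0 and 61.0 CPM in E.G7 and 35.7, 38.6, 43.1 and 37.8 CPM in LN. The 3 groups did not overlap, and every Hepa1-6 library was above every other library by a wide margin. In bulk libraries such as these, fewer cells of a type and less RNA per cell cannot be told apart. The tumours differed in which class made up the sum. Basement membrane chains gave 42.0 ± 1.71 CPM in Hepa1-6, 1.35 ± 0.0876 CPM in E.G7 and 0.767 ± 0.162 CPM in LN, and fibrillar chains 82.2 ± 9.06, 34.1 ± 1.94 and 17.3 ± 2.30 CPM in the Hepa1-6, E.G7 and LN libraries. As a share of all collagen CPM, basement membrane chains were 18.6% ± 0.993 in Hepa1-6, 2.39% ± 0.390 in E.G7 and 1.98% ± 0.382 in LN. This class holds type IV chains only. Col18a1, a basement membrane zone collagen, was counted among the others, at 21.8 ± 2.31, 6.37 ± 1.24 and 0.936 ± 0.256 CPM in these groups. Its relative Col15a1 was counted there too, at 0.618 ± 0.187, 0.425 ± 0.0233 and 1.58 ± 0.462 CPM. Fibrillar chains were 36.2% ± 2.33 in Hepa1-6, 59.9% ± 2.54 in E.G7 and 44.6% ± 4.17 in LN. The other collagens were the remaining 45.3% ± 1.57, 37.7% ± 2.93 and 53.4% ± 4.34 (all SD, n = 4, 2 and 4).

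**Figure D1:**
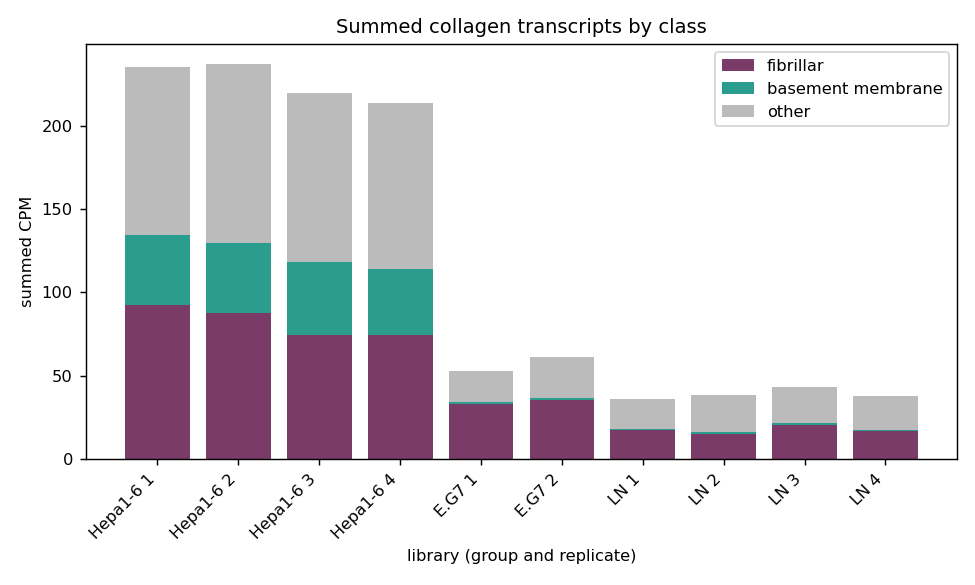
Summed collagen CPM of each library (bars, y axis from 0), stacked by class, for 4 Hepa1-6, 2 E.G7 and 4 LN libraries. Basement membrane (type IV) chains form a visible layer of about 42.0 CPM in Hepa1-6 libraries. They form a thin line of 1.35 CPM in E.G7 and 0.767 CPM in LN libraries.

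Gene by gene, 17 of the 29 tested members were higher and 7 lower in Hepa1-6 than in LN libraries at an edgeR adjusted p under 0.05, where 37% of all tested genes were higher and 31.1% lower (68% in all). In E.G7 against LN, 13 were higher and 4 lower, beside 32.7% and 27.2% of all genes (59.9% in all). In Hepa1-6 against E.G7, 15 were higher and 2 lower, beside 26.1% and 19.6% of all genes (45.6% in all). The median log2 fold change of the 29 was 4.16 in Hepa1-6 against LN, 1.60 in E.G7 against LN and 1.54 in Hepa1-6 against E.G7, where the median of all genes was 0.039, 0.013 and 0.061. With genes that had no count in one group set at their lower bound, and those at the floor in both left out, the medians were 4.16, 1.91 and 1.54. These counts and medians rest in part on members that passed the filter only with the tumour libraries included, and are given as a description. The share of members that were lower in Hepa1-6 than in LN was near that of all genes and is not read as a result about collagens. The same holds for the share called in either direction in E.G7 against LN. Of the 13 members higher in E.G7 than in LN, 8 passed the filter only with the Hepa1-6 libraries included. Without overlap between libraries, 16 were higher and 6 lower in Hepa1-6 than in LN (34.1% and 27.6% of all genes), 12 and 5 in E.G7 than in LN (36.6% and 32.6%), and 15 and 2 in Hepa1-6 than in E.G7 (31.9% and 26.2%). By this measure the share higher in E.G7 than in LN was near that of all genes and is not read as a result about collagens. Both tumour groups were set against the same LN libraries. Side by side, 13 members were higher in both tumours than in LN, and 4 were higher in Hepa1-6 and missed the threshold in E.G7. Lower in both were 4 members, 3 were lower in Hepa1-6 and missed it in E.G7, and 5 missed it in both. The shares of all genes with the same joint calls were not counted. These joint counts are therefore a description and are not read as a result about collagens.

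**Figure D2:**
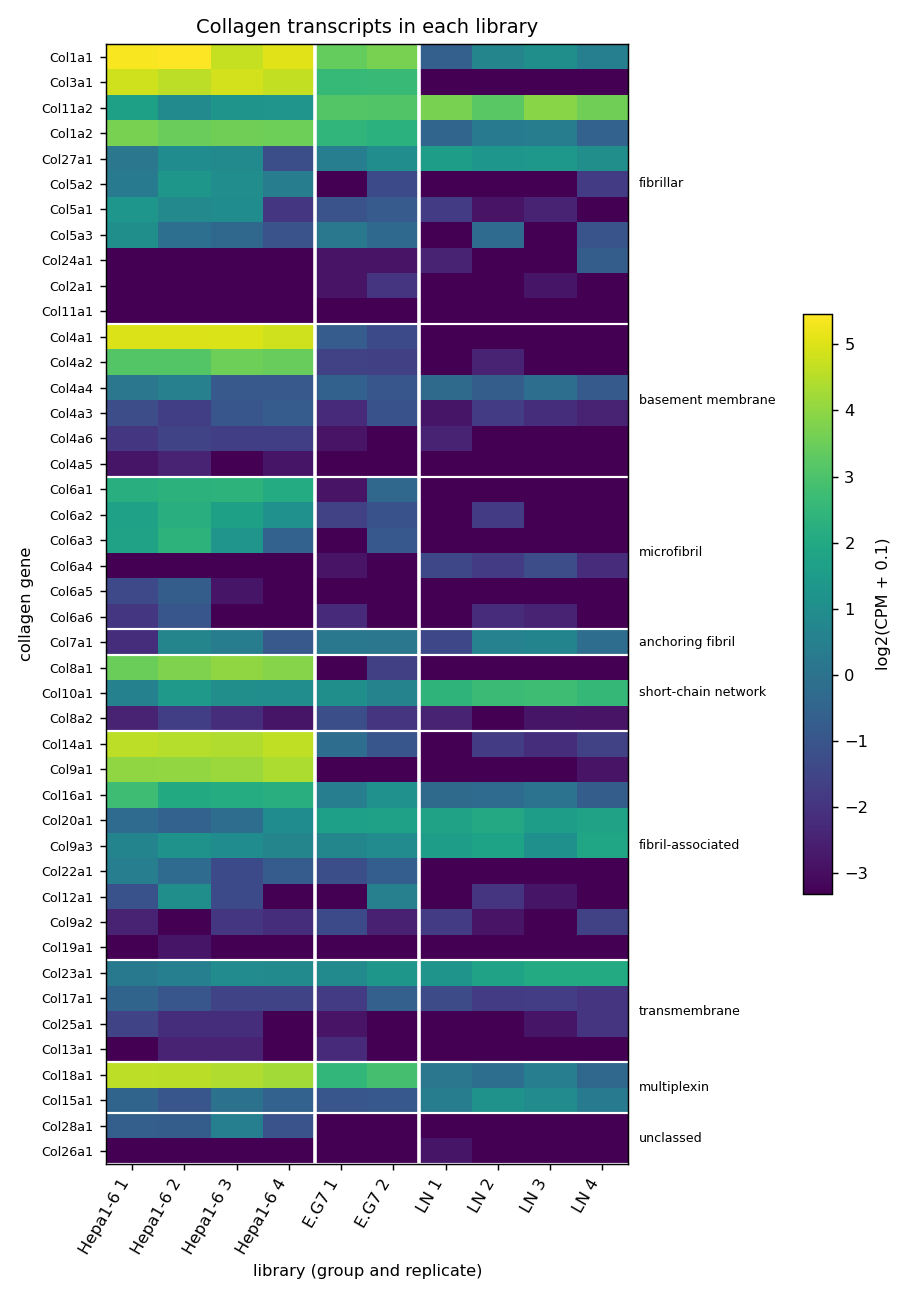
Level of each of the 44 collagen genes (rows, by class) in each library (columns, Hepa1-6, then E.G7, then LN), as log2(CPM + 0.1). Bright blocks in the Hepa1-6 columns mark Col1a1, Col3a1, Col4a1, Col14a1, Col18a1 and Col9a1, and the dark rows are genes with few or no counts.

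The type I and type III fibrillar chains were high in both tumours and low in LN. Col1a1 encodes the alpha 1 chain of type I collagen, the main fibril of skin, tendon, bone and scar (mm10 chromosome 11, 94936224 to 94953042). It stood at 41.7, 44.1, 25.5 and 33.4 CPM in Hepa1-6 libraries, 10.4 and 12.8 CPM in E.G7 and 0.554, 1.5, 1.97 and 1.28 CPM in LN. The groups did not overlap, with Hepa1-6 highest and LN lowest. Col1a1 was 27.3-fold higher in Hepa1-6 than in LN (log2 4.77, SE 0.28, edgeR adjusted p = 4.71e-09) and 8.73-fold higher in E.G7 than in LN (log2 3.12, SE 0.31, adjusted p = 1.73e-06). Its partner Col1a2, the alpha 2 chain, had 12.9, 10.9, 11.8 and 11.6 CPM in Hepa1-6 libraries, 5.35 and 4.78 CPM in E.G7 and 0.633, 1.12, 1.21 and 0.583 CPM in LN. Col1a2 was 13.3-fold higher in Hepa1-6 (adjusted p = 2.51e-10) and 5.73-fold higher in E.G7 (adjusted p = 2.74e-07) than in LN. Between the tumours, Hepa1-6 libraries had 3.13-fold more Col1a1 (adjusted p = 3.40e-04) and 2.33-fold more Col1a2 (adjusted p = 3.55e-04) than E.G7 libraries.

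Col3a1, whose homotrimer accompanies type I fibrils in soft tissue and vessel walls (chromosome 1, 45311538 to 45349706), had no count in any LN library. It had 28.1, 24, 28.8 and 25.3 CPM in Hepa1-6 libraries and 5.76 and 6.04 CPM in E.G7. Both tumours were thus above the LN floor, which is 0.0295 CPM for 3 counts over the 4 LN libraries. Col3a1 was at least 902-fold higher in Hepa1-6 (adjusted p = 1.24e-12) and at least 200-fold higher in E.G7 (adjusted p = 2.57e-10) than in LN, and 4.5-fold higher in Hepa1-6 than in E.G7 (adjusted p = 2.48e-07). Floors and counting intervals cover counting error only. Its exons share 141 bases with the predicted gene Gm47302, which is listed at 0 in all libraries.

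Type V chains, which start and thin type I fibrils, were lower and less even. Col5a2 had 1.14, 2.44, 1.90 and 1.2 CPM in Hepa1-6 libraries, 0 and 0.294 CPM in E.G7, and 0, 0, 0 and 0.194 CPM in LN. Hepa1-6 libraries were above all others, by 34.0-fold over LN (log2 4.96, SE 0.86, adjusted p = 1.35e-04) and 11.3-fold over E.G7 (adjusted p = 8.68e-03). All LN counts of Col5a2 came from replicate 4, and without it the fitted log2 value was 8.40 in Hepa1-6, and the E.G7 difference from LN (adjusted p = 0.323 with all libraries) passed at log2 4.95. Without E.G7 replicate 2 that difference turned to log2 -3.44 (adjusted p = 0.364, range over 18 alternatives 0.0296 to 0.503). Without E.G7 replicate 1 the difference from E.G7 lost its call at log2 2.48 (adjusted p = 0.079, range over 19 alternatives 0.00159 to 0.079), and without E.G7 replicate 2 it was 8.39. Col5a1 had 2.33, 1.65, 1.82 and 0.165 CPM in Hepa1-6 libraries, 0.372 and 0.478 CPM in E.G7 and 0.198, 0.0386, 0.0803 and 0 CPM in LN. Hepa1-6 replicate 4 lay within the LN range, and the other 3 were far above it. Col5a1 was 19.0-fold higher in Hepa1-6 than in LN (adjusted p = 2.75e-04), with a fitted log2 of 4.16, or 5.08 without LN replicate 1. Its call in E.G7 against LN (5.41-fold, adjusted p = 0.0484, log2 2.36, or 3.28 without LN replicate 1) was lost in 11 of 18 alternatives, with adjusted p from 0.00705 to 0.184. Among these were the fits without LN replicate 2, 3 or 4, Hepa1-6 replicate 2 or 3, or either E.G7 replicate. Between the tumours Col5a1 missed the threshold (adjusted p = 0.0845) and passed without Hepa1-6 replicate 4 (log2 2.17, adjusted p = 0.00502, range over 19 alternatives 0.00502 to 0.366). Col5a3, the third type V chain, averaged 0.965 ± 0.716 CPM in Hepa1-6, 0.870 ± 0.241 CPM in E.G7 and 0.280 ± 0.353 CPM in LN and did not pass in any of the 3 comparisons, though it did in Hepa1-6 and in E.G7 against LN when LN replicate 2 was left out (log2 2.83 and 2.68). Over 19 alternatives each, its adjusted p ran from 0.0193 to 0.271 in Hepa1-6 and from 0.0299 to 0.477 in E.G7 against LN.

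Col11a2 and Col27a1 were lower in Hepa1-6 than in LN. Col11a2, the alpha 2 chain of type XI collagen (chromosome 17, 34039437 to 34066685), had 3.10, 1.70, 2.23 and 2.27 CPM in Hepa1-6 libraries, 8.47 and 8.32 CPM in E.G7 and 12.7, 9.29, 14.7 and 11.7 CPM in LN. The 3 groups did not overlap, and Hepa1-6 was the lowest. Col11a2 was 5.18-fold lower in Hepa1-6 than in LN (log2 -2.38, SE 0.19, adjusted p = 1.92e-08) and 3.61-fold lower in Hepa1-6 than in E.G7 (log2 -1.85, SE 0.22, adjusted p = 4.44e-06). In E.G7 against LN it was 1.44-fold lower (adjusted p = 0.0469), a call lost in 12 of 20 alternatives, among them without LN replicate 1, 3 or 4, Hepa1-6 replicate 3 or either E.G7 replicate, with adjusted p from 0.0174 to 0.573. Col27a1, a fibrillar chain of developing cartilage, had 1.02, 1.82, 1.73 and 0.330 CPM in Hepa1-6 libraries, 1.26 and 1.88 CPM in E.G7 and 2.93, 2.35, 2.49 and 1.94 CPM in LN. All tumour libraries were below all LN libraries, and the difference passed in Hepa1-6 (1.98-fold lower, log2 -0.98, adjusted p = 0.030) and missed in E.G7 (adjusted p = 0.252). The Hepa1-6 call was lost in 5 of 20 alternatives, among them without LN replicate 1, LN replicate 3 or Hepa1-6 replicate 1 (log2 -0.88, -0.97 and -0.90), with adjusted p from 0.0107 to 0.131.

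Of the 11 fibrillar genes 8 were tested. In Hepa1-6 against LN 5 were higher and 2 lower (37% and 31.1% of all genes), with a median log2 fold change of 3.94. In E.G7 against LN 4 were higher and 1 lower (32.7% and 27.2% of all genes), with a median of 1.98. In Hepa1-6 against E.G7 4 were higher and 1 lower (26.1% and 19.6% of all genes), with a median of 1.43. The summed fibroblast markers were 98.9 ± 12.1 CPM in Hepa1-6, 36.3 ± 1.32 CPM in E.G7 and 4.24 ± 0.435 CPM in LN. Most of the Hepa1-6 sum was Dcn (90.3 CPM there and 0.479 CPM in E.G7). Most of the E.G7 sum was Fbln1 (32.6 CPM there and 1.12 CPM in Hepa1-6). The order of the tumours in this sum thus rests on single genes. The part of fibroblasts in the fibrillar values was not tested.

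Type IV basement membrane chains differed widely between the tumours. Col4a1 and Col4a2 encode the alpha 1 and alpha 2 chains of the type IV network found in nearly every basement membrane (chromosome 8, 11198423 to 11312826 and 11312805 to 11449287). Col4a1 had 31.8, 31.9, 31.3 and 28.1 CPM in Hepa1-6 libraries, 0.483 and 0.294 CPM in E.G7 and no count in LN. Col4a2 had 8.62, 8.65, 11.6 and 10.5 CPM in Hepa1-6 libraries, 0.223 and 0.221 CPM in E.G7, and 0.0771 CPM in LN replicate 2 with no count in the other LN libraries. For both genes every Hepa1-6 library was far above every E.G7 library, and E.G7 was above LN. Col4a1 was 79.2-fold (log2 6.29, SE 0.25, adjusted p = 3.63e-10) and Col4a2 44.3-fold (log2 5.44, SE 0.40, adjusted p = 1.70e-08) higher in Hepa1-6 than in E.G7. Against LN, Col4a1 was at least 1040-fold higher in Hepa1-6 (adjusted p = 1.14e-12) and at least 13.2-fold higher in E.G7 (adjusted p = 1.73e-05).

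Because Col4a2 had few LN counts, its ratio to LN is given with a 95% counting interval: 501-fold (138 to 4140) in Hepa1-6 (adjusted p = 2.52e-11) and 11.3-fold (2.52 to 104) in E.G7 (adjusted p = 2.81e-03). Without LN replicate 2 the LN group was at 0, and the fitted log2 values of Col4a2 were 10.95 in place of 8.65 and 5.51 in place of 3.21. The exons of the pair overlap by 22 bases on opposite strands, and no source used here states how strand was treated in the counting. The chains for special membranes such as the kidney filter were low. Col4a4 averaged 0.813 ± 0.433 CPM in Hepa1-6, 0.481 ± 0.108 CPM in E.G7 and 0.621 ± 0.163 CPM in LN and did not pass in any comparison. Col4a3 (35 counts in Hepa1-6, 13 in E.G7, 11 in LN), Col4a6 (20, 1 and 2) and Col4a5 (4, 0 and 0) were too low to test. Of the 6 genes 3 were tested and 2 were higher in each of the 3 comparisons. Of all genes, 37% were higher in Hepa1-6 against LN, 32.7% in E.G7 against LN and 26.1% in Hepa1-6 against E.G7. The summed hepatoma markers were 2804 ± 18.2 CPM in Hepa1-6, 122 ± 3.31 CPM in E.G7 and 9.43 ± 0.792 CPM in LN, and their part was not tested. In E.G7 that sum was mostly Trf (115 CPM), while the albumin gene Alb and the keratins Krt8 and Krt19 stood near 0 there (0.0554, 0.130 and 0.0557 CPM).

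**Figure D3:**
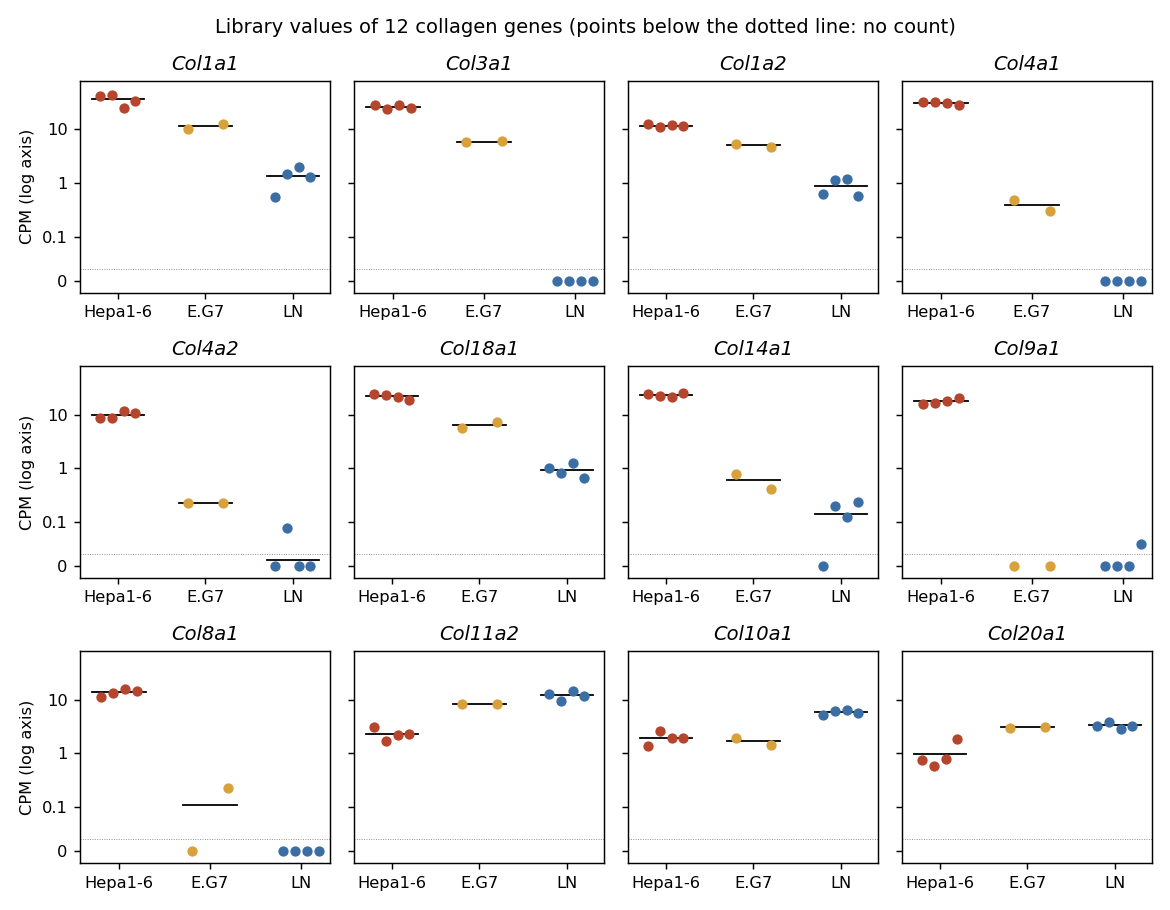
CPM of 12 collagen genes in each library (points, log axis) with the group mean (line), for Hepa1-6 (n = 4), E.G7 (n = 2) and LN (n = 4); points below the dotted line had no count, and the lines of means near or at 0 fall there or are not drawn. The Hepa1-6 points of Col4a1 and Col4a2 stand far above those of E.G7, those of Col1a1 and Col1a2 less so, and Col11a2 and Col10a1 are highest in LN.

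Among the other collagens, the multiplexin Col18a1 and the fibril-associated chains Col14a1 and Col9a1 had the highest levels per exon length in Hepa1-6. Col18a1, a basement membrane zone proteoglycan whose end fragment is endostatin (chromosome 10, 77052178 to 77166548), had 23.9, 23.2, 21.1 and 18.8 CPM in Hepa1-6 libraries, 5.5 and 7.25 CPM in E.G7 and 1.03, 0.810, 1.25 and 0.660 CPM in LN. The groups did not overlap, with the same order as Col1a1. Col18a1 was 23.3-fold higher in Hepa1-6 (log2 4.54, SE 0.19, adjusted p = 4.26e-12) and 6.84-fold higher in E.G7 (log2 2.77, SE 0.22, adjusted p = 2.15e-08) than in LN, and 3.41-fold higher in Hepa1-6 than in E.G7 (adjusted p = 1.98e-06).

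Col14a1 encodes a chain that binds the surface of type I fibrils (chromosome 15, 55307750 to 55520803). It had 24, 22.4, 21.2 and 24.8 CPM in Hepa1-6 libraries, 0.780 and 0.405 CPM in E.G7 and 0, 0.193, 0.121 and 0.233 CPM in LN. Hepa1-6 stood far above both other groups, by 39.0-fold over E.G7 (log2 5.27, SE 0.33, adjusted p = 2.42e-09) and 168-fold over LN (log2 7.34, SE 0.30, adjusted p = 3.25e-12). The smaller difference of E.G7 from LN (4.30-fold, adjusted p = 2.58e-03) had an adjusted p of 0.0748 without E.G7 replicate 1 (log2 1.53, range over 19 alternatives 3.47e-05 to 0.0748).

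Col9a1, the alpha 1 chain of type IX collagen that coats cartilage fibrils (chromosome 1, 24177610 to 24252684), was counted almost wholly in Hepa1-6 libraries. It had 15.9, 16.5, 17.7 and 20.8 CPM in Hepa1-6, no count in E.G7 and 0.0388 CPM in LN replicate 4, with no count in the other LN libraries. Col9a1 was at least 319-fold higher in Hepa1-6 than in E.G7 (adjusted p = 2.31e-10). Against LN the ratio was 1800-fold with a 95% counting interval of 323 to 71300 (adjusted p = 1.54e-12), and the fitted log2 value was 11.81 without LN replicate 4, against 10.23 with it. Its partner chains did not go with it. Col9a2 had 9 counts in Hepa1-6, 10 in E.G7 and 12 in LN and was not tested, and Col9a3 was lower in both tumours.

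Col8a1, a short-chain collagen of vessel walls and the eye (chromosome 16, 57624258 to 57754737), had 11.1, 13.6, 16.0 and 14.5 CPM in Hepa1-6 libraries, 0 and 0.221 CPM in E.G7 and no count in LN. It was at least 468-fold higher in Hepa1-6 than in LN (adjusted p = 2.33e-09) and 124-fold higher than in E.G7 (adjusted p = 2.54e-07, fitted log2 6.90, or 5.93 and 11.43 without E.G7 replicate 1 or 2). Its call in E.G7 against LN (adjusted p = 0.0215) rested on E.G7 replicate 2, since replicate 1 had no count and the groups overlapped at 0; the fitted log2 of 4.55 was 0 without replicate 2 and 5.51 without replicate 1. Col16a1, a fibril-associated chain, had 6.58, 3.93, 4.29 and 4.62 CPM in Hepa1-6 libraries, 1.26 and 2.06 CPM in E.G7 and 0.712, 0.733, 0.924 and 0.505 CPM in LN, with no overlap. It was 6.78-fold higher in Hepa1-6 (adjusted p = 1.99e-07) and 2.32-fold higher in E.G7 (adjusted p = 5.08e-03) than in LN, and 2.92-fold higher in Hepa1-6 than in E.G7 (adjusted p = 8.03e-04). Without E.G7 replicate 2 its E.G7 value against LN was log2 0.82 (adjusted p = 0.127, range over 20 alternatives 0.000934 to 0.127).

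The 3 chains of the common type VI microfibril, which links fibrils to basement membranes, were raised in Hepa1-6. Col6a1 had 4.49, 4.96, 5.03 and 4.13 CPM in Hepa1-6 libraries, 0.0372 and 0.662 CPM in E.G7 and no count in LN. Col6a2 had 3.19, 4.51, 3.09 and 2.10 CPM in Hepa1-6 libraries, 0.223 and 0.368 CPM in E.G7 and 0.193 CPM in LN replicate 2 alone. Col6a3 had 3.27, 5.01, 2.27 and 0.578 CPM in Hepa1-6 libraries, 0 and 0.442 CPM in E.G7 and no count in LN. Every Hepa1-6 library was above every other library for each chain. Against LN, Col6a1 was at least 158-fold (adjusted p = 9.95e-07), Col6a3 at least 94.4-fold (adjusted p = 1.34e-03) and Col6a2 65.7-fold (adjusted p = 6.68e-07) higher in Hepa1-6, the last with a fitted log2 of 5.90, or 9.35 without LN replicate 2. Against E.G7, Col6a1 was 13.2-fold (adjusted p = 3.82e-04), Col6a2 10.9-fold (adjusted p = 4.18e-04) and Col6a3 12.5-fold (adjusted p = 0.0403) higher in Hepa1-6. The Col6a1 value of log2 3.71 moved to 2.80 and 6.78 without E.G7 replicate 1 or 2, and the Col6a3 value of 3.62 to 2.63 and 9.13. The Col6a3 call was lost in 9 of 20 alternatives, among them without E.G7 replicate 1 or Hepa1-6 replicate 1, 2 or 3 (adjusted p from 0.00172 to 0.160).

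In E.G7 against LN, Col6a1 was at least 11.9-fold (adjusted p = 2.33e-03) and Col6a2 6.03-fold (adjusted p = 0.0269) higher. Without E.G7 replicate 2 the Col6a1 call was lost (log2 3.08, adjusted p of 0.137, range over 19 alternatives 5.22e-06 to 0.137), while without E.G7 replicate 1 its log2 value was 7.07 in place of 6.17. The Col6a2 call was lost in 5 of 19 alternatives, among them without E.G7 replicate 2 or LN replicate 1, 3 or 4 (adjusted p from 0.000602 to 0.178), and its log2 value was 5.92 without LN replicate 2. Col6a3 missed the threshold in E.G7 (adjusted p = 0.0898) and passed without E.G7 replicate 1 or Hepa1-6 replicate 4 (log2 6.49 and 5.53), but without E.G7 replicate 2 its log2 value was 0 (adjusted p from 0.0226 to 1 over 19 alternatives). The minor chains stayed under the filter: Col6a5 had 20 counts in Hepa1-6, 0 in E.G7 and 0 in LN, Col6a6 had 14, 3 and 5, and Col6a4 had 0, 1 and 23.

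At lower levels, Col22a1, a collagen of tissue junctions, averaged 0.699 ± 0.422 CPM in Hepa1-6 libraries and 0.425 ± 0.128 CPM in E.G7 and had no count in LN. It was at least 23.8-fold higher in Hepa1-6 (adjusted p = 5.58e-05) and at least 14.4-fold higher in E.G7 (adjusted p = 5.07e-04) than in LN. Col28a1, a small collagen described around peripheral glia, averaged 0.669 ± 0.412 CPM in Hepa1-6 and had no count in the other groups. It was at least 22.7-fold higher in Hepa1-6 than in LN (adjusted p = 1.30e-04) and at least 12.1-fold higher than in E.G7 (adjusted p = 1.89e-03). Col12a1, a fibril-associated chain, ranged from 0 to 1.99 CPM in Hepa1-6, was 0 and 1.32 CPM in E.G7, ranged from 0 to 0.154 CPM in LN and did not pass in any comparison (adjusted p = 0.0606 in Hepa1-6 and 0.0936 in E.G7 against LN). It passed in Hepa1-6 against LN without Hepa1-6 replicate 4 or either E.G7 replicate (log2 4.04, 3.62 and 3.62) and in E.G7 against LN without Hepa1-6 replicate 4 or E.G7 replicate 1 (log2 3.63 and 4.63), while without E.G7 replicate 2 the E.G7 value turned to log2 -3.44 (adjusted p = 0.535). Over 17 alternatives each, adjusted p ran from 0.00416 to 0.295 in Hepa1-6 and from 0.0291 to 0.557 in E.G7 against LN.

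**Figure D4:**
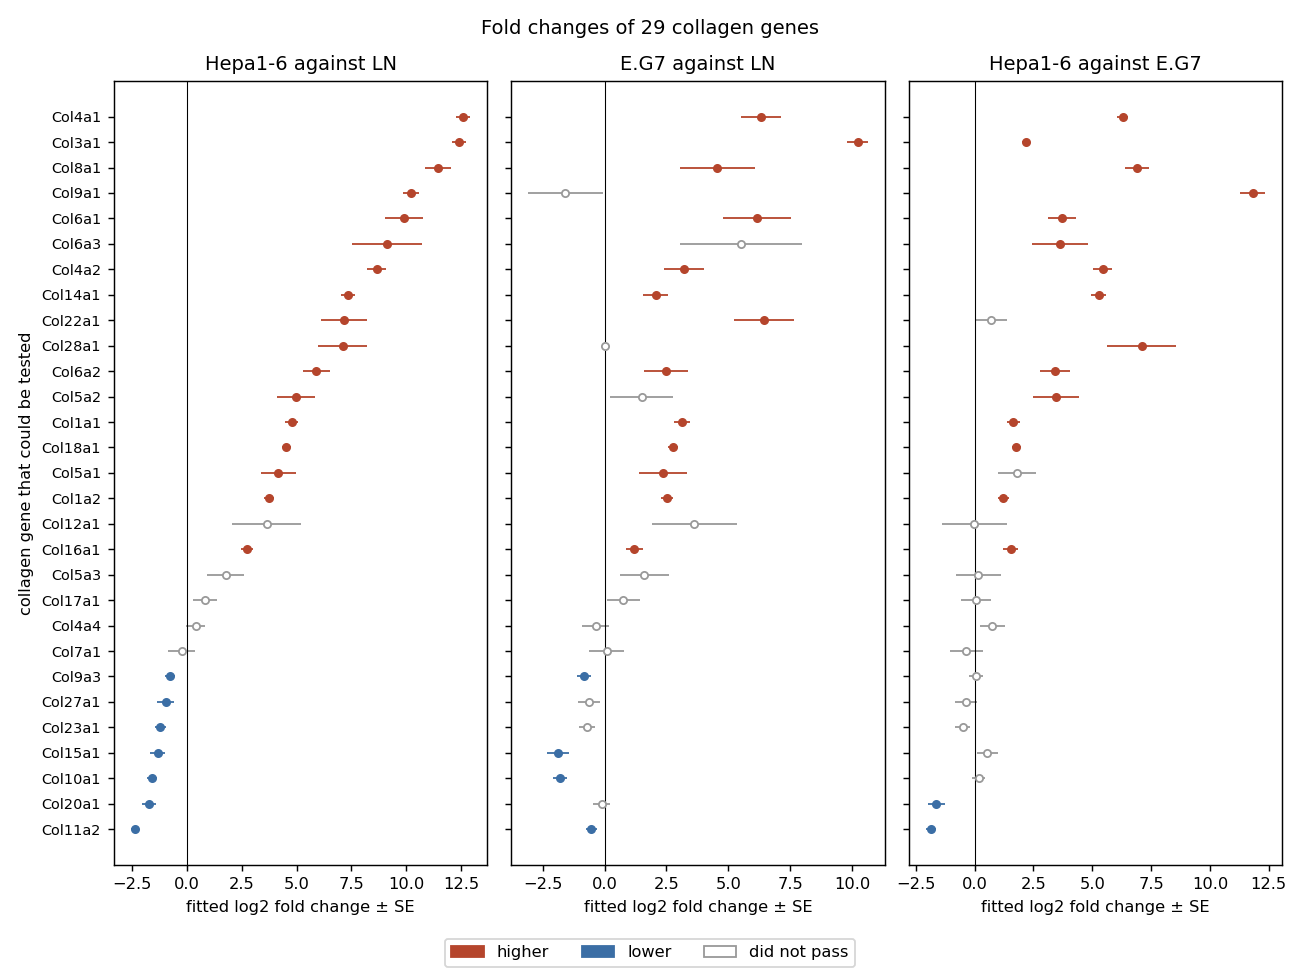
Fitted log2 fold change ± SE of the 29 collagen genes that could be tested (rows, ordered by Hepa1-6 against LN) in the 3 comparisons, coloured by call. Values of genes without counts in one group are fitted and are no bounds. Col9a1, Col28a1, Col8a1, Col4a1, Col4a2 and Col14a1 stand farthest right in Hepa1-6 against E.G7, and Col11a2 and Col20a1 lie left of 0 there.

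Several other collagens were lower in tumour libraries. Col10a1, a short-chain collagen of hypertrophic cartilage (chromosome 10, 34389981 to 34397085), had 1.35, 2.56, 1.94 and 1.90 CPM in Hepa1-6 libraries, 1.97 and 1.44 CPM in E.G7 and 5.14, 6.25, 6.55 and 5.67 CPM in LN. All tumour libraries were below all LN libraries, and the tumours overlapped. Col10a1 was 3.05-fold lower in Hepa1-6 (log2 -1.61, SE 0.21, adjusted p = 6.28e-06) and 3.47-fold lower in E.G7 (log2 -1.79, SE 0.28, adjusted p = 4.06e-05) than in LN. Col10a1 lies inside Nt5dc1 on the opposite strand and shares 18 exon bases with it. Nt5dc1 averaged 45.3 ± 5.35 CPM in Hepa1-6, 48.2 ± 1.92 CPM in E.G7 and 80.2 ± 2.58 CPM in LN and was lower too, by log2 -0.82 (adjusted p = 1.09e-07) in Hepa1-6 and -0.73 (adjusted p = 7.67e-06) in E.G7. Its part in the Col10a1 counts was not tested.

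Col15a1, the multiplexin related to Col18a1, had 0.613, 0.414, 0.866 and 0.578 CPM in Hepa1-6 libraries, 0.409 and 0.442 CPM in E.G7 and 1.23, 2.12, 1.81 and 1.17 CPM in LN. The LN libraries were all above the tumour libraries, so the multiplexin pair moved in opposite directions. Col15a1 was 2.56-fold lower in Hepa1-6 (adjusted p = 2.17e-03) and 3.72-fold lower in E.G7 (adjusted p = 1.83e-03). Col9a3, the alpha 3 chain of type IX, had 1.47, 2.15, 1.82 and 1.49 CPM in Hepa1-6 libraries, 1.52 and 1.80 CPM in E.G7 and 2.93, 3.32, 2.01 and 3.57 CPM in LN. Only LN replicate 3 came within the Hepa1-6 range. Col9a3 was 1.72-fold lower in Hepa1-6 (adjusted p = 9.90e-03) and 1.78-fold lower in E.G7 (adjusted p = 0.0264). The Hepa1-6 difference missed the threshold when libraries were scaled on pan T cell genes and against a fold of 1.5 (adjusted p = 0.0969 and 0.176, range over 20 alternatives 0.00226 to 0.176). The E.G7 call was lost in 7 of 20 alternatives, among them without LN replicate 2 or 4 or either E.G7 replicate (adjusted p from 0.00907 to 0.185). Its exons share 234 bases with Tcfl5 on the opposite strand, which is listed at 0 in all libraries.

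Col20a1, a fibril-associated chain, had 0.735, 0.579, 0.784 and 1.86 CPM in Hepa1-6 libraries, 3.01 and 3.13 CPM in E.G7 and 3.24, 3.82, 2.89 and 3.26 CPM in LN. E.G7 lay within the LN range and Hepa1-6 below both. It was 3.34-fold lower in Hepa1-6 than in LN (log2 -1.74, SE 0.31, adjusted p = 1.16e-04) and 3.11-fold lower than in E.G7 (log2 -1.63, SE 0.36, adjusted p = 1.28e-03). The exons of Col20a1 share 79 bases with 9230112E08Rik on the same strand. That gene averaged 3.53 ± 0.773 CPM in Hepa1-6, 3.16 ± 0.00467 CPM in E.G7 and 3.69 ± 0.684 CPM in LN and did not pass in any comparison. Its part in the Col20a1 counts was not tested. Col23a1, a transmembrane collagen, had 1.06, 1.28, 1.77 and 1.69 CPM in Hepa1-6 libraries, 1.71 and 2.43 CPM in E.G7 and 2.25, 3.28, 4.02 and 4.04 CPM in LN. Hepa1-6 lay below LN without overlap, and E.G7 overlapped both. Col23a1 was 2.34-fold lower in Hepa1-6 than in LN (adjusted p = 6.02e-04) and missed in E.G7 (adjusted p = 0.0613), where it passed without LN replicate 1 (log2 -0.87, adjusted p = 0.0227, range over 20 alternatives 0.0227 to 0.365). The 4 genes lower in both tumours were Col9a3, Col10a1, Col11a2 and Col15a1. They summed to 6.61 ± 0.291 CPM in Hepa1-6, 12.2 ± 0.266 CPM in E.G7 and 22.5 ± 1.76 CPM in LN. All collagens in LN summed to 38.8 ± 3.15 CPM. Since these genes were picked by their calls in these data, a sum highest in LN follows from that choice. Col11a2 alone averaged 12.1 CPM in LN and 8.39 CPM in E.G7.

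Col7a1, the anchoring fibril of skin, had 0.123, 1.49, 1.2 and 0.454 CPM in Hepa1-6 libraries, 1.04 and 1.03 CPM in E.G7 and 0.277, 1.39, 1.45 and 0.777 CPM in LN. The groups overlapped, and it did not pass in Hepa1-6 against LN (log2 -0.25, SE 0.60, adjusted p = 0.726), E.G7 against LN (log2 0.09, SE 0.71, adjusted p = 0.935) or Hepa1-6 against E.G7 (log2 -0.34, SE 0.72, adjusted p = 0.733). Col17a1, a hemidesmosome collagen, averaged 0.380 ± 0.174 CPM in Hepa1-6, 0.369 ± 0.259 CPM in E.G7 and 0.216 ± 0.0695 CPM in LN and did not pass in any comparison either. Of the 27 other collagens 18 were tested. In Hepa1-6 against LN 10 were higher and 5 lower (37% and 31.1% of all genes). In E.G7 against LN the counts were 7 and 3 (32.7% and 27.2%), and in Hepa1-6 against E.G7 9 and 1 (26.1% and 19.6%). The remaining members not tested had at most 15 summed counts in a group. Col24a1, a fibrillar chain of bone, had none in Hepa1-6, 2 in E.G7 and 15 in LN. Col25a1 had 12, 1 and 5, Col8a2 11, 13 and 4, Col13a1 4, 3 and 0, and Col2a1, the main cartilage collagen, 0, 5 and 1 in the same order of groups. Col19a1 had 1 count in Hepa1-6, Col26a1 1 count in LN, and Col11a1 no count in any library.

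Per kilobase of exon, the order of the genes also differed between groups. In Hepa1-6 the highest levels were those of Col1a1 (5.51 CPM per kb), Col4a1 (4.12), Col9a1 (3.49), Col14a1 (3.29), Col18a1 (3.10) and Col3a1 (2.70). In E.G7 they were Col1a1 (1.76 CPM per kb), Col11a2 (1.22), Col18a1 (0.908) and Col3a1 (0.601). In LN they were Col10a1 (1.89 CPM per kb), Col11a2 (1.76), Col9a3 (0.767), Col20a1 (0.642) and Col23a1 (0.592), all genes that were lower in Hepa1-6. Chains of one trimer could be set side by side in the tumours. The Col1a1 to Col1a2 ratio per exon length was 5.84 ± 1.49 in Hepa1-6 and 4.36 ± 0.980 in E.G7, or 2.91 and 2.17 per coding length. The Col4a1 to Col4a2 ratio per exon length was 2.83 ± 0.514 in Hepa1-6 and 1.55 ± 0.523 in E.G7 (3.26 and 1.79 per coding length). That of Col6a1 to Col6a2 was 2.90 ± 0.688 in Hepa1-6 and 1.87 ± 2.20 in E.G7 (1.54 and 0.992 per coding length). The Col6a1 to Col6a3 ratio was uneven, at 8.01 ± 7.79 in Hepa1-6 (2.71 to 19.5 over the libraries), or 9.39 per coding length. Col3a1 and Col1a1 belong to different trimers. The Col3a1 to Col1a1 ratio was 0.519 ± 0.168 in Hepa1-6 and 0.344 ± 0.0392 in E.G7 per exon length (all SD, n = 4 and 2), or 0.770 and 0.510 per coding length.

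Genes that modify, process, bind and degrade collagen were counted in lists beside the members. Counts in these lists and in the marker lists below stand beside the shares of all genes. Those shares were 37% higher and 31.1% lower in Hepa1-6 against LN and 32.7% and 27.2% in E.G7 against LN. In Hepa1-6 against E.G7 they were 26.1% and 19.6%. Of 19 genes for chain modification and folding in the endoplasmic reticulum, 18 were tested, and 14 were higher and 1 lower in Hepa1-6 than in LN (median log2 1.35), 8 and 1 in E.G7 (0.64), and 11 and 0 in Hepa1-6 against E.G7 (0.69). The shared prolyl hydroxylase subunit P4hb averaged 819 ± 27.6 CPM in Hepa1-6, 340 ± 24.5 CPM in E.G7 and 219 ± 16.6 CPM in LN, and was 3.73-fold (adjusted p = 8.52e-14) and 1.55-fold (adjusted p = 7.58e-07) higher in the tumours. P4ha1, the catalytic subunit, and Plod3, a lysyl hydroxylase, were 2.18-fold (adjusted p = 6.34e-11) and 4.86-fold (adjusted p = 2.14e-11) higher in Hepa1-6 than in LN and 2.26-fold and 3.46-fold higher in Hepa1-6 than in E.G7. In E.G7 against LN the isomerase Ppib was 1.66-fold higher and Mia3, a cargo receptor for procollagen export, was lower (log2 -0.73). The list summed to 1593 CPM in Hepa1-6, 786 CPM in E.G7 and 656 CPM in LN, where all 19 genes had counts.

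Procollagen processing and cross-linking genes summed to 314 CPM in Hepa1-6, 5.88 CPM in E.G7 and 5.35 CPM in LN. Of 12 genes 11 were tested, and 10 were higher and 0 lower in Hepa1-6 than in LN (median log2 4.5), 3 and 3 in E.G7 (1.60), and 8 and 0 in Hepa1-6 against E.G7 (2.69). Pcolce, an enhancer of procollagen C-propeptide removal, averaged 265 ± 9.67 CPM in Hepa1-6, 0.369 ± 0.154 CPM in E.G7 and 1.43 ± 0.305 CPM in LN. It was 185-fold higher in Hepa1-6 than in LN (adjusted p = 1.02e-17) and 718-fold higher than in E.G7 (adjusted p = 2.85e-15), and lower in E.G7 than in LN (log2 -1.94, adjusted p = 1.02e-05). The lysyl oxidases Loxl2 and Loxl4, which cross-link collagen, averaged 15.9 ± 4.15 and 12.1 ± 1.45 CPM in Hepa1-6 libraries, 0.0370 ± 0.000251 and 0.591 ± 0.0483 CPM in E.G7, and 0.636 ± 0.202 and 1.54 ± 0.721 CPM in LN. Both were higher in Hepa1-6 (adjusted p = 1.29e-10 and 4.67e-08) and lower in E.G7 (adjusted p = 1.92e-04 and 8.30e-03) than in LN.

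Of 15 other basement membrane genes 14 were tested, and 13 were higher and 0 lower in Hepa1-6 than in LN (median log2 4.36, or 3.51 with genes without LN counts at their bound), 8 and 3 in E.G7 (2.33), and 9 and 1 in Hepa1-6 against E.G7 (2.27). Those lower in E.G7 than in LN were the laminin chains Lama3 (log2 -1.75, adjusted p = 0.0394) and Lamb3 (log2 -0.97, adjusted p = 1.47e-07) and the proteoglycan Agrn (log2 -0.64, adjusted p = 0.0152). The laminin chain Lamb2 did not pass between the tumours (adjusted p = 0.429), at 46.7 ± 2.01 CPM in Hepa1-6, 42.9 ± 1.62 CPM in E.G7 and 1.05 ± 0.272 CPM in LN. Lamc1, the common laminin gamma chain, averaged 105 ± 1.2, 54.4 ± 2.54 and 10.9 ± 1.34 CPM in these groups. Hspg2, the perlecan gene, was 96.4-fold higher in Hepa1-6 than in E.G7, at 35.7 ± 1.06 CPM in Hepa1-6, 0.370 ± 0.159 CPM in E.G7 and 0.296 ± 0.237 CPM in LN. Nid1, the linker nidogen, averaged 29 ± 4.43 CPM in Hepa1-6, 6.15 ± 2.13 CPM in E.G7 and had no count in LN, and was at least 208-fold higher in E.G7 than in LN. Lamb3 and Agrn were 6.65-fold and 8.25-fold higher in Hepa1-6 than in E.G7, and Lamb1 was the 1 member lower there, at 0.670 ± 0.522 CPM in Hepa1-6, 46.5 ± 3.53 CPM in E.G7 and 0.107 ± 0.0848 CPM in LN (adjusted p = 6.42e-08).

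Of the 9 collagen receptors, 7 were higher and 0 lower in Hepa1-6 than in LN (median log2 3.74, or 2.78 at the bound), 7 and 1 in E.G7 (1.81), and 6 and 2 in Hepa1-6 against E.G7 (1.98). Lair1, an inhibitory receptor of leukocytes, averaged 60.7 ± 1.45 CPM in Hepa1-6, 14.1 ± 0.741 CPM in E.G7 and 4.55 ± 0.908 CPM in LN. Ddr2, a fibrillar collagen receptor of connective tissue cells, averaged 28.7 ± 1.09, 0.129 ± 0.130 and 0.0194 ± 0.0388 CPM in these groups, and Itga1 24.3 ± 3.36, 4.77 ± 0.242 and 1.36 ± 0.531 CPM. Itga2 was 3.46-fold higher in Hepa1-6 than in E.G7 (adjusted p = 2.12e-07). Itga11 was highest in E.G7, at 0.647 ± 0.335 CPM in Hepa1-6, 5.64 ± 0.458 CPM in E.G7 and 0.709 ± 0.354 CPM in LN (adjusted p = 1.89e-05 in E.G7 against LN).

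All 6 collagen-degrading enzymes were higher in each tumour than in LN (median log2 5.49 in Hepa1-6 and 3.52 in E.G7), and 4 were higher in Hepa1-6 than in E.G7 (2.68). The collagenase Mmp13 averaged 62.8 ± 4.64 CPM in Hepa1-6, 0.388 ± 0.128 CPM in E.G7 and 0.00971 ± 0.0194 CPM in LN, and was 162-fold higher in Hepa1-6 than in E.G7 (adjusted p = 6.74e-13). The gelatinase Mmp9 did not pass between the tumours (adjusted p = 0.395), at 62.2 ± 5.61 CPM in Hepa1-6, 57.0 ± 3.42 CPM in E.G7 and 8.05 ± 1.07 CPM in LN. The neutrophil collagenase Mmp8 averaged 16.0 ± 2.09 CPM in Hepa1-6, 1.07 ± 0.373 CPM in E.G7 and had no count in LN. Ctsk, a collagen-cleaving cathepsin, was 9.10-fold higher in E.G7 than in LN (adjusted p = 1.15e-05), and the membrane enzyme Mmp14 was 8.17-fold higher in Hepa1-6 than in E.G7 (adjusted p = 1.21e-04).

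Markers of cells that could carry collagen transcripts also differed between the groups, but not all lists stood in the order of the collagens. The 10 fibroblast markers summed to 84.0 to 109.7 CPM in Hepa1-6, 35.4 to 37.2 CPM in E.G7 and 3.70 to 4.63 CPM in LN, where Dcn, Lum and Mfap5 had no count. Of 9 tested, 6 were higher and 1 lower in each tumour than in LN, and 3 were higher and 1 lower in Hepa1-6 than in E.G7. Different genes filled the sums: Dcn, the proteoglycan decorin, averaged 90.3 ± 11.7 CPM in Hepa1-6, 0.479 ± 0.467 CPM in E.G7 and 0 in LN, and Fbln1, a fibulin, 1.12 ± 0.393, 32.6 ± 1.14 and 1.09 ± 0.522 CPM. Pdgfra, a surface receptor that defines fibroblasts, was low in all groups, at 0.299 ± 0.235 CPM in Hepa1-6, 0.130 ± 0.0270 CPM in E.G7 and 0.0297 ± 0.0593 CPM in LN.

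The 7 pericyte and smooth muscle markers summed to 8.21 to 10.4 CPM in Hepa1-6, 66.5 to 71.9 CPM in E.G7 and 2.24 to 3.16 CPM in LN. Of these, 3 were higher and 0 lower in each tumour than in LN, and 3 higher and 2 lower in Hepa1-6 than in E.G7. The share higher in each tumour was near that of all genes (37% in Hepa1-6 and 32.7% in E.G7) and is not read as a result about these cells. Acta2, smooth muscle actin, averaged 2.44 ± 0.703 CPM in Hepa1-6, 55.2 ± 2.18 CPM in E.G7 and 1.88 ± 0.434 CPM in LN, and Pdgfrb 1.85 ± 0.564, 13.4 ± 1.89 and 0.00964 ± 0.0193 CPM. Cspg4 had no count in E.G7 and Des none in LN. The 9 endothelial markers summed to 96.5 to 106 CPM in Hepa1-6, 75.6 to 91.8 CPM in E.G7 and 221 to 237 CPM in LN, with Pecam1, which T cells carry too, at 72.6 ± 4.62 CPM in Hepa1-6, 78.7 ± 12.1 CPM in E.G7 and 228 ± 8.35 CPM in LN. Esam, an adhesion protein of endothelial junctions, averaged 17.4 ± 1.57 CPM in Hepa1-6, 0.315 ± 0.290 CPM in E.G7 and 0.0297 ± 0.0593 CPM in LN, and the receptor Kdr 5.75 ± 1.29, 2.09 ± 0.326 and 0.349 ± 0.477 CPM. Cdh5, which defines endothelium, averaged 0.638 ± 0.158 CPM in Hepa1-6, 0.739 ± 0.204 CPM in E.G7 and 0.107 ± 0.140 CPM in LN, and Tek, Emcn and Tie1 had no count in E.G7 or LN. Of 6 tested, 5 were higher and 1 lower in each tumour than in LN, and 2 higher and 0 lower in Hepa1-6 than in E.G7.

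Of the 12 hepatoma markers 9 were tested, and 8 were higher and 0 lower in Hepa1-6 than in LN, 6 and 1 in E.G7, and 7 and 1 in Hepa1-6 against E.G7. Alb, serum albumin, averaged 370 ± 9.96 CPM in Hepa1-6, 0.0554 ± 0.0258 CPM in E.G7 and 0.0389 ± 0.0315 CPM in LN, and the keratin Krt8 463 ± 21.8, 0.130 ± 0.0270 and 0.0194 ± 0.0223 CPM. Serpina1a had no count in any library, Fgb none in E.G7 and Krt19 none in LN. Ttr had 2 counts in Hepa1-6, 0 in E.G7 and 2 in LN. Some markers were highest in E.G7. Apoh averaged 0.360 ± 0.170 CPM in Hepa1-6, 1.83 ± 0.195 CPM in E.G7 and 0.660 ± 0.194 CPM in LN. Apoa2 averaged 0.381 ± 0.181, 0.907 ± 0.189 and 0.0693 ± 0.0677 CPM in these groups, and Ahsg had 1, 15 and 6 counts. All 8 macrophage markers were higher in each tumour than in LN and higher in Hepa1-6 than in E.G7. The 5 markers of E.G7 lymphoma or immature thymocytes summed to 2.74 to 3.18 CPM in Hepa1-6, 171 to 176 CPM in E.G7 and 2.10 to 2.85 CPM in LN. Nearly all of the E.G7 sum was Trap1a (127 CPM) and Dntt (46.6 CPM). Of these markers 2 were tested, and both were higher in E.G7 than in LN and lower in Hepa1-6 than in E.G7. Rag1 was at 0 in all libraries, and in E.G7 Rag2 had 0 and Ptcra 3 counts. Of the 6 Treg and T cell markers, 1 was higher and 4 were lower in Hepa1-6 than in LN, 1 and 5 in E.G7, and 5 and 0 in Hepa1-6 against E.G7. The part of these cells in the collagen values was not tested.

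**Figure D5:**
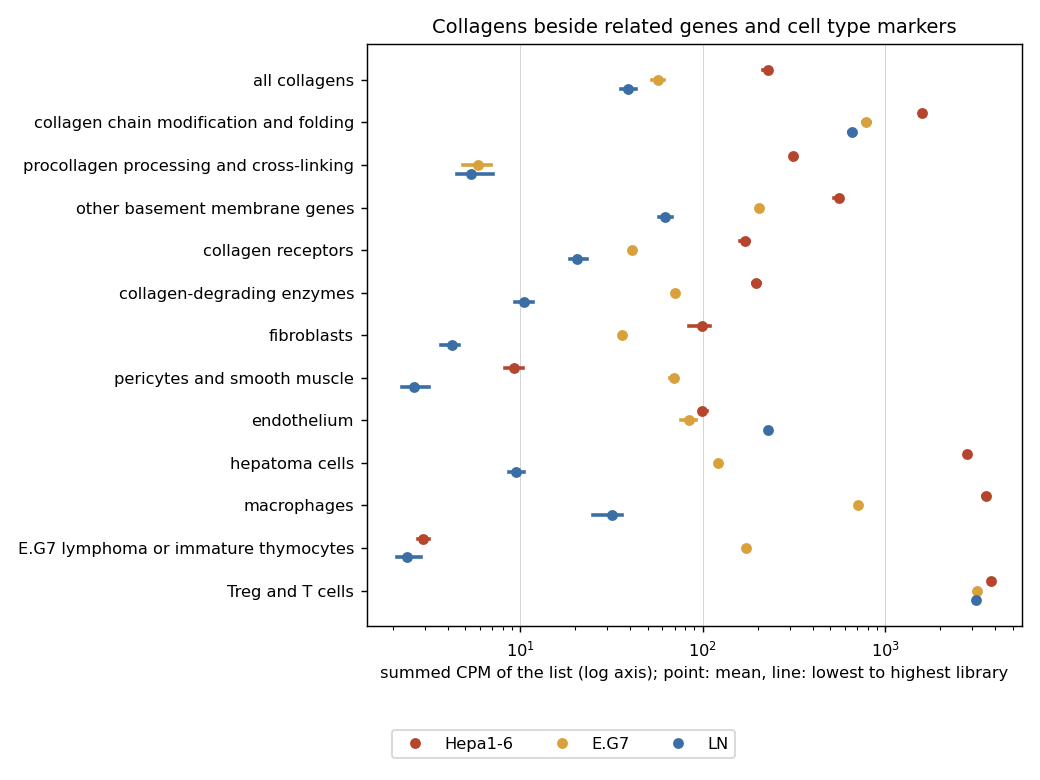
Summed CPM (log axis) of the collagens, of the lists of related genes and of the cell type marker lists in Hepa1-6 (n = 4), E.G7 (n = 2) and LN (n = 4) libraries; points are means and lines run from the lowest to the highest library. Collagens stand at 227, 57.0 and 38.8 CPM in Hepa1-6, E.G7 and LN, beside hepatoma markers at 2804, 122 and 9.43 CPM and pericyte and smooth muscle markers at 9.28, 69.2 and 2.62 CPM.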

How the data were processed

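RNA sequencing of 10 libraries was analysed. Per gene, the deposited table gives integer counts of reads over exons for 55291 genes, with a column of exon length in bases, in the layout featureCounts writes, per the file headers. The deposited exon length is used only to set levels per kilobase. The submitters' processing notes name HISAT2, featureCounts, Subread, RSEM and DESeq2 and the build mm10; versions, roles and the strand setting are not given in the sources used here. The deposited FPKM tables were not used here. Groups were taken from sample titles.

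Counts were fitted in R 4.3.3 with edgeR 4.0.16: filterByExpr (20068 genes), TMM scaling, 1 robust quasi-likelihood fit of the 3 groups over all 10 libraries, Benjamini-Hochberg adjusted p under 0.05 over all genes tested, no minimum fold. The biological coefficient of variation was 13%. SE was derived as log2 fold change over the root of the F statistic. Folds against a group without counts were bounded from below by setting that group to 3 counts in all (0.0309 CPM in Hepa1-6, 0.0555 CPM in E.G7, 0.0295 CPM in LN); ratios to 1 to 3 counts have exact 95% intervals. Replicates within a group differed by more than sampling noise (chi-square per degree of freedom 7.41 to 18.85). Member coordinates in the table matched GENCODE M21 (GRCm38) for all 44 genes. The model was also run on simulated counts drawn from its own fitted spread, with changes set only in better counted genes. That run does not cover members with few counts, and its outcome is not given here.

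Members with a mean of at least 1 CPM in a group, and every member that was lower, are given in full; in the lists of related genes, the 3 genes of smallest adjusted p per comparison are named, with a few further genes chosen after their values were seen. The members and lists were chosen with earlier results of these data known. Alternatives were RLE, upper-quartile and pan T cell gene scaling, dropping the filter or requiring a mean of 1 CPM, limma-voom (limma 3.58.1), DESeq2 1.42.0, a replicate block, only the groups compared, a test against a fold of 1.5, coding length, and each library left out.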

Additional observations from a re-analysis of the deposited data

Results flagged for a closer look

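In 23 members with at least 1 CPM in a group, the 4 Hepa1-6 and the 4 LN libraries were each set up for a check for a library far from the rest, 46 groups in all. Groups without a count in any library were passed over. For evenly spread values chance flags about 1 in 20 groups, and 6 were flagged. A group where 1 library alone has counts is always flagged, as in the LN flags below, so that rate does not apply to them. Hepa1-6 replicate 4 stood apart for Col20a1, at 1.86 CPM beside 0.579 to 0.784 CPM in the other Hepa1-6 libraries, and for Col4a1, at 28.1 CPM beside 31.3 to 31.9 CPM. In LN, Col4a2 was counted in replicate 2 alone (0.0771 CPM), Col6a2 in replicate 2 alone (0.193 CPM), Col5a2 in replicate 4 alone (0.194 CPM) and Col9a1 in replicate 4 alone (0.0388 CPM), with 0 in the other LN libraries of each gene.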

How the results depend on the processing

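Of 87 results (29 genes in 3 comparisons), 66 kept their side of the threshold under every alternative that could be run and 21 changed their call under at least 1; 56 kept both direction and side. Of differences that had passed the threshold, 0 changed sign. Among those that had not, 12 changed sign under at least 1 alternative, and the cause was not tested. In Hepa1-6 against LN, Col7a1 was at 0.05 with pan T cell gene scaling (log2), and at -0.71 to 0.11 with 1 library left out. In E.G7 against LN, Col20a1 was at 0.20 with pan T cell gene scaling and 0.01 with the replicate block, and Col7a1 at -0.03 with upper-quartile scaling; with 1 library left out, Col7a1 ran from -0.22 to 0.34, Col17a1 from -0.21 to 1.34, Col5a2 from -3.44 to 4.95 and Col12a1 from -3.44 to 5.20. In Hepa1-6 against E.G7, Col9a3 was at -0.01 with upper-quartile scaling, -0.01 without a filter and -0.02 with only these groups, Col17a1 at -0.02, -0.02 and -0.03 in the same settings, Col12a1 at 1.39 with the replicate block and 0.74 with limma-voom, and Col5a3 at -0.08 with limma-voom. With 1 library left out, this comparison gave -0.07 to 0.18 for Col9a3, -0.54 to 1.01 for Col17a1, -1.01 to 7.06 for Col12a1, -0.48 to 0.46 for Col5a3, -0.80 to 0.02 for Col7a1 and -0.03 to 0.42 for Col10a1. The count of collagen genes higher in E.G7 than in LN, 13, was 5 when only these groups were fitted, since the other 8 did not pass the filter there and were not tested, and ran from 8 to 15 with 1 library left out (8 without E.G7 replicate 2). The count lower in E.G7 than in LN, 4, was 2 with pan T cell gene scaling, 2 without a filter, 2 against a fold of 1.5, and 2 to 4 with 1 library left out (2 without LN replicate 4 or either E.G7 replicate); the cause was not tested for the scaling and filter values. The other counts stayed within 1.5 times: with 1 library left out, 17 to 20 higher and 6 to 7 lower in Hepa1-6 than in LN, and 13 to 16 higher and 2 lower in Hepa1-6 than in E.G7. Replicate numbers did not pair the libraries: deviations of libraries with the same number correlated at -0.049 to 0.029, and 1 of 4 Hepa1-6 libraries correlated best with its own LN number. With a replicate block 18 genes were higher and 7 lower in Hepa1-6 than in LN, 14 and 3 in E.G7 than in LN, and 16 and 3 in Hepa1-6 than in E.G7. Pan T cell gene scaling moved the median of all genes by 0.307 in Hepa1-6 against LN and 0.308 in E.G7 against LN (log2), and upper-quartile scaling by -0.18 and -0.116; relative to the pan T shift, Col11a2 was at -2.38 and -0.53 and Col9a3 at -0.77 and -0.82. Per coding length the chain ratios moved by more than their SD for Col1a1 to Col1a2, Col3a1 to Col1a1 and, in Hepa1-6 only, Col6a1 to Col6a2. Many members had only a few counts in E.G7 and LN libraries; whether depth or the spread between libraries limits their differences was not tested.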
